A study of Mus musculus with 2 samples.

Results

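Serum response factor (SRF) and the myocyte enhancer factor 2 (MEF2) proteins are the MADS-box transcription factors of mammals, and they were examined here with their cofactors in mouse splenic B cells. The genes were Srf, the actin-regulated coactivators Mrtfa and Mrtfb, the ternary complex factors Elk1, Elk3 and Elk4, the MEF2 genes Mef2a, Mef2c and Mef2d, and Hdac7, a class IIa histone deacetylase. They are 10 of the 12393 genes that the array measures with a probe set naming 1 gene. All probe sets that the platform annotation assigned to exactly 1 of these symbols were taken, which gave 26 probe sets of 20380.

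The samples were 2 arrays of wild-type cells, 1 array per sample, each from IgM+IgD+ cells sorted by flow cytometry from mouse spleen, with no genetic modification. The labels give no strain, age, treatment or number of mice. The series was designed to set such cells against cells lacking SRF, and arrays of those cells were not analysed here. The samples, called replicate 1 and replicate 2 by accession order, are not said by the labels to come from separate mice or sorts. The sex-linked genes Xist and Eif2s3y differed as between female and male cells. Xist, the RNA that coats the inactive X chromosome of female cells, gave 1025 on replicate 1 and 5.7 on replicate 2 by its brightest probe set. The Y-linked Eif2s3y gave 3.4 on replicate 1 and 248.7 on replicate 2. The other measured genes of the sex-linked list, Kdm5d and Uty, were less clear. Kdm5d gave 88.4 on replicate 1 and 175.9 on replicate 2 by its brightest probe set. Uty gave 44.8 on replicate 1 and 57.7 on replicate 2 by its brighter probe set, and 58.8 and 4.8 by the other. By Xist and Eif2s3y, the spread between the samples includes a difference in sex, which cannot be told apart from other differences between them.

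SRF and the MEF2 proteins bind related A/T-rich DNA elements as dimers, and both act as platforms for signal-dependent partners. SRF is joined at immediate early genes by ternary complex factors, which are phosphorylated by ERK, and at cytoskeletal genes by the MRTF proteins, which are held in the cytoplasm by free actin. MEF2 proteins are repressed by class IIa histone deacetylases such as HDAC7, which leave the nucleus bound to 14-3-3 proteins when calcium-dependent kinases or protein kinase D phosphorylate them. In B cells MEF2C is a main member of its family, a target of p38 downstream of the antigen receptor, and HDAC7 is a repressor of genes of other lineages.

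The promoter of Srf itself carries the element its product binds, the CArG box, and it is shown for that reason. The 250 bases before the annotated start lie at chr17:46556163-46556412 on the minus strand of GRCm38.p6 (RefSeq), and capitals mark the CArG boxes.
Srf: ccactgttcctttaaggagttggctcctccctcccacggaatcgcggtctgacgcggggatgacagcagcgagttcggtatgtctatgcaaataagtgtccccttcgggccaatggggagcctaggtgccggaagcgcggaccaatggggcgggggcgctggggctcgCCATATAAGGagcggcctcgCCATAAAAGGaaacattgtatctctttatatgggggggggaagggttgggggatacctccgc

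The CArG boxes of Srf run from 82 to 73 and from 62 to 53 bases before the start. That start lies inside the span annotated for the gene, chr17:46546838-46558267, and is not its outermost end. The second shares its last bases with a GGAA, the core that ETS proteins such as the ternary complex factors bind, which begins 54 bases before the start. Promoter windows of 300 bases, 250 before and 50 after a start, were searched on both strands for the CArG box, the MEF2 site and GGAA. Of 20 windows of the 10 genes, some of which overlap, 1 held a CArG box, that of Srf. Of all 32851 windows, 1.63% held at least 1 CArG box and 6 windows held 2 or more. GGAA was present in all 20 windows, but also in 96.0% of all windows, so its presence says little about these genes.

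The letters of a MEF2 site were found in 2 of the 20 windows, of Mef2a and of Mrtfb, against 3.19% of all windows. The match in Mef2a lies across the start, at chr7:67372851-67372860 on the minus strand. This start, too, lies inside the annotated span of its gene, chr7:67231163-67376456. The match in Mrtfb, at chr16:13358256-13358265 on the plus strand, begins 165 bases before the most downstream of the 3 starts annotated for that gene. Both are shown within 30 bases, with the matching letters in capitals, because they are the only such matches among the members.
Mef2a: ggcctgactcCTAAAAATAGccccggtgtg
Mrtfb: gctagagattTTATTTTTAActgcttgact

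**Figure D1:**
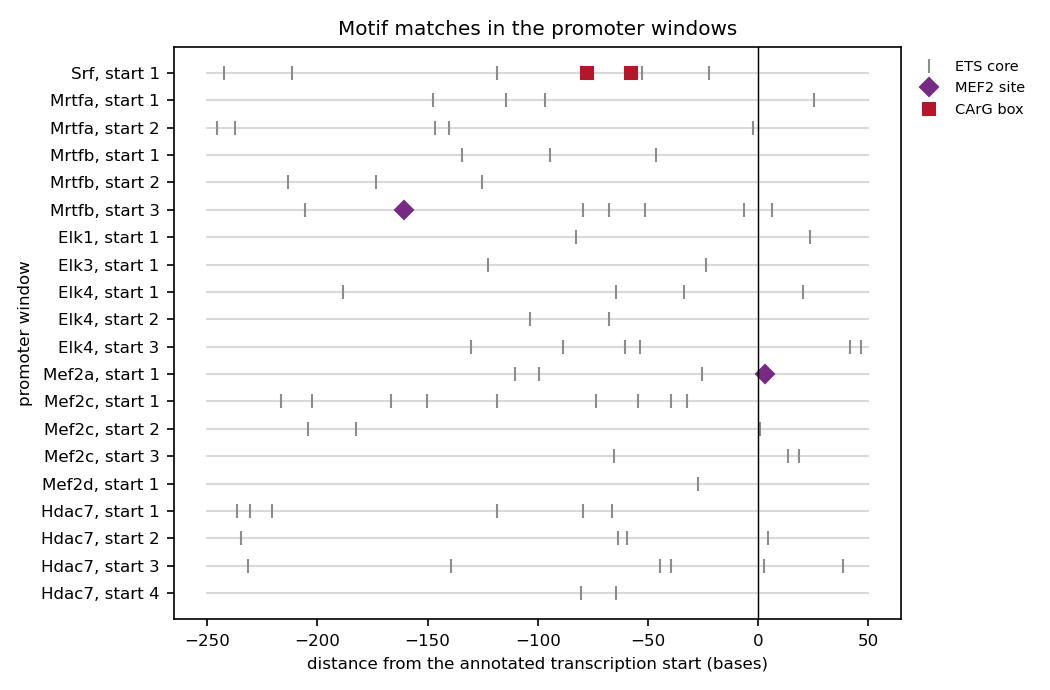
Positions of CArG boxes (squares), MEF2 sites (diamonds) and GGAA cores (ticks) in the 20 RefSeq promoter windows of the 10 genes, with the distance from the annotated start in bases on the x axis and 1 line per window, genes with several starts being numbered by genome position. Both CArG boxes lie in the window of Srf, and a MEF2 site lies in 1 window each of Mef2a and Mrtfb.

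The matches are descriptions of sequence, and binding was not measured. The base composition of the windows varied widely. The G and C content of the 20 windows had a median of 63.8%, against 52.7% over all windows. Among the members it was lowest, at 35.7%, in the first of 3 windows of Mef2c, and highest, at 74.3%, in the second of 3 windows of Elk4.

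Expression was read as MAS5 signal, a linear intensity per probe set. As a floor, each array was given the 90th percentile of its signals for 89 probe sets of 58 genes known from organs other than spleen, which was 155.6 on replicate 1 and 97.1 on replicate 2. A probe set is called detected below when it exceeded the floor of each array, and a gene when at least 1 of its probe sets did. A difference is the log2 signal of replicate 2 less that of replicate 1. With 2 samples of 1 group there is no test, and a difference is set beside the spread of differences, 0.90, which is the root mean square difference over all detected probe sets and corresponds to a pooled SD of log2 signal of 0.64. Because probes differ in affinity, signals of different genes or probe sets are not compared as amounts of RNA.

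Of the 26 probe sets, 11 were detected, against 25.4% of all single-gene probe sets. Counted by gene, 8 of the 10 were detected, against 31.4% of all genes. The 8 were Srf, Mrtfa, Elk1, Elk4, Mef2a, Mef2c, Mef2d and Hdac7, and the 2 others were Mrtfb and Elk3. Of the other 15 probe sets, 3 passed the floor of replicate 1 alone, 6 that of replicate 2 alone and 6 neither. The members were picked as known regulators with earlier results of these arrays at hand, and a gene with more probe sets has more chances to pass.

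**Figure D2:**
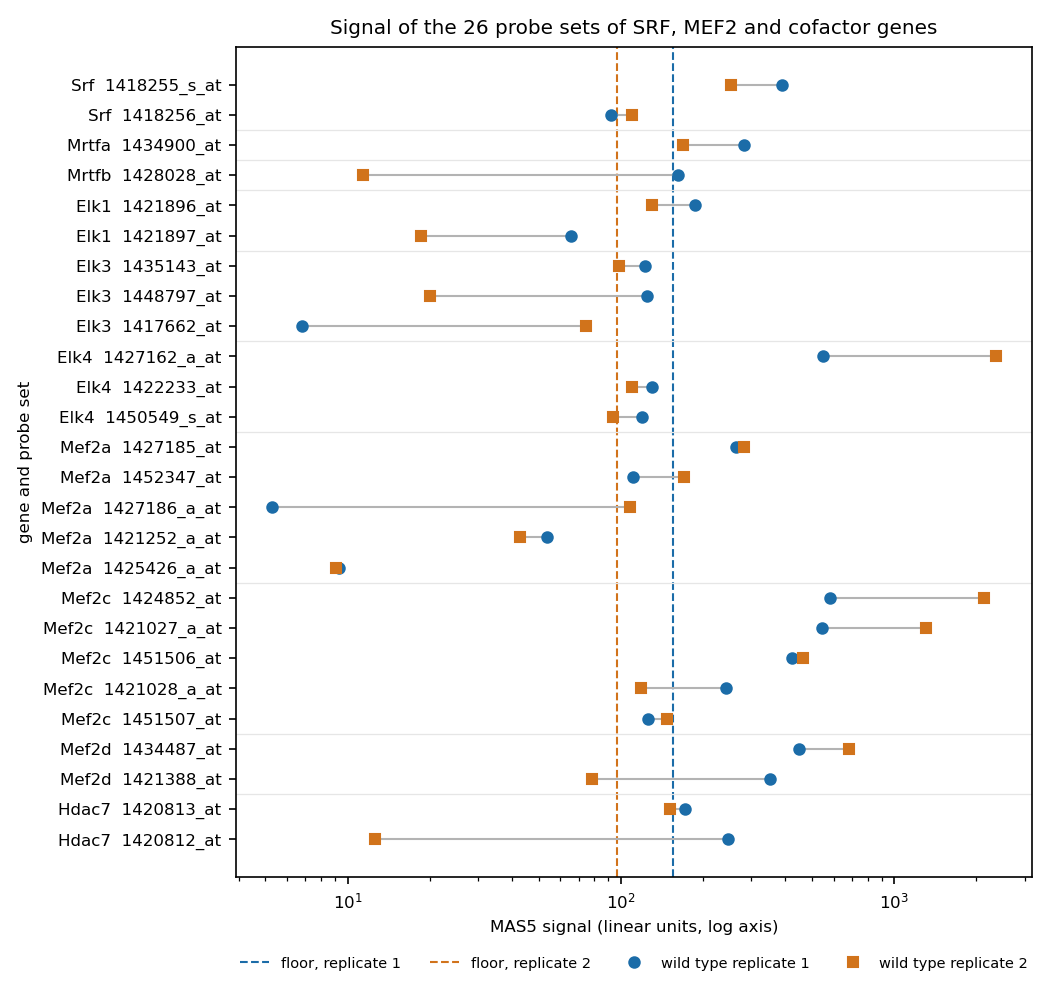
MAS5 signal on a log axis for each of the 26 probe sets (rows, by gene), with circles for wild type replicate 1, squares for wild type replicate 2 and dashed lines for the floor of each array. The brightest probe sets of Elk4 and Mef2c lie farthest above both floors, at 548 and 2355 and at 582 and 2125, while 2 other probe sets of Elk4 and 1 of Mef2c lie below the floor of replicate 1.

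Srf, at chr17:46546838-46558267, was detected in both samples by its probe set 1418255_s_at. It read 389 on replicate 1 and 254 on replicate 2, or 322 ± 96.0 (SD, n = 2). The difference, -0.62 on the log2 scale, was smaller than the spread of differences. The other Srf probe set, 1418256_at, is annotated with the same source sequence and gave 91.7 on replicate 1 and 109.9 on replicate 2, below the floor of replicate 1. The detection of Srf therefore rested on a probe set of the _s_at class, whose probes can match transcripts of more than 1 gene. For the deletion arm of the study these are the wild-type values of the targeted gene, 2.50 and 2.61 times the floor of their arrays by the brighter probe set.

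Of the MRTF coactivators, Mrtfa was detected and Mrtfb was not. Mrtfa, at chr15:81012281-81190736, is measured by 1 probe set, which gave 282 on replicate 1 and 169 on replicate 2, or 225 ± 79.9 (SD, n = 2), a difference of -0.74. This was smaller than the spread of differences, at 1.67-fold. In bulk RNA of this kind, fewer cells of a type and less RNA per cell cannot be told apart. Mrtfb, at chr16:13256056-13417529, is also measured by 1 probe set, with 162 on replicate 1 and 11.4 on replicate 2. Its signal was 1.04 times the floor on replicate 1 and 0.117 times the floor on replicate 2, so it passed in 1 sample and by little. Myocd, the muscle-restricted coactivator of SRF, was below the floor by both its probe sets, with 154 and 80.1 on replicate 1 and 2.3 and 20.2 on replicate 2. On replicate 1 its brighter probe set, at 154, lay just under the floor of 155.6, and Mrtfb, at 162, just above it.

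Among the ternary complex factors Elk4 had the clearest signal. Elk4, also called SAP-1, lies at chr1:132007577-132026448. Its probe set 1427162_a_at gave 548 on replicate 1 and 2355 on replicate 2, or 1452 ± 1278 (SD, n = 2), 4.29-fold higher on replicate 2. The other Elk4 probe sets share a source sequence with each other but not with the first. They gave 130 on replicate 1 and 109.8 on replicate 2 (1422233_at), and 119 on replicate 1 and 93.8 on replicate 2 (1450549_s_at). Neither passed the floor of replicate 1, and their differences, -0.24 and -0.35, were close to 0, so the large difference of Elk4 was seen by 1 of its 3 probe sets.

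Elk1, the best studied ternary complex factor, lies on the X chromosome at chrX:20933395-20950608. Its probe set 1421896_at was little above the floor, with 187 on replicate 1 and 130 on replicate 2, or 158 ± 40.2 (SD, n = 2), a difference of -0.52. The second, 1421897_at, was below the floor on both arrays, with 65.9 on replicate 1 and 18.5 on replicate 2. Whether a sex difference between the samples bears on X-linked Elk1 was not tested.

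Elk3, also called Net, acts as a repressor until it is phosphorylated and lies at chr10:93247415-93311159. None of its 3 probe sets was detected. The brightest, 1435143_at, gave 122 on replicate 1 and 98.8 on replicate 2. The other probe sets are annotated with 1 shared source sequence and went opposite ways. They gave 125 on replicate 1 and 20.1 on replicate 2 (1448797_at), and 6.8 on replicate 1 and 74.5 on replicate 2 (1417662_at). All 4 of these signals lay below the floors, where such ratios are not interpretable as expression.

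Mef2c, the MEF2 gene most studied in B cells, was the member most broadly detected. It lies at chr13:83504017-83667079, and 4 of its 5 probe sets were detected, more than for any other member. Probe set 1424852_at gave 582 on replicate 1 and 2125 on replicate 2, or 1354 ± 1091 (SD, n = 2), 3.65-fold higher on replicate 2. Probe set 1421027_a_at gave 545 on replicate 1 and 1308 on replicate 2, or 926 ± 540 (SD, n = 2), 2.40-fold higher on replicate 2. Both differences were larger than the spread of differences.

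The 3 other Mef2c probe sets gave smaller or opposite differences. Probe set 1451506_at gave 421 on replicate 1 and 463 on replicate 2, or 442 ± 29.1 (SD, n = 2). Probe set 1451507_at gave 126 on replicate 1, below the floor, and 148 on replicate 2. Both are annotated with the source sequence of 1424852_at, yet their differences were 0.13 and 0.23, against 1.87. Probe set 1421028_a_at was 2.04-fold higher on replicate 1, with 243 on replicate 1 and 119 on replicate 2. The mean difference over the 4 detected probe sets was 0.56, so the data show Mef2c signal in both samples without agreeing on which has more.

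Mef2d, at chr3:88141941-88172091, encodes a widely expressed MEF2 protein. Its probe set 1434487_at gave 449 on replicate 1 and 682 on replicate 2, or 565 ± 165 (SD, n = 2), a difference of 0.60 that was smaller than the spread of differences. The other, 1421388_at, gave 351 on replicate 1 and 78.6 on replicate 2, the second value below the floor. On replicate 1 both probe sets thus passed the floor, and on replicate 2 the first alone.

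Mef2a, at chr7:67231163-67376456, encodes the MEF2 protein best known from heart and skeletal muscle. In the values as deposited, its detected probe set had the smallest difference of the 11 detected. Probe set 1427185_at gave 264 on replicate 1 and 282 on replicate 2, or 273 ± 12.9 (SD, n = 2), a difference of 0.10. Its 2 companions with the same source sequence passed on replicate 2 alone, with 111 on replicate 1 and 169.9 on replicate 2 (1452347_at) and with 5.3 on replicate 1 and 108 on replicate 2 (1427186_a_at). The remaining probe sets were below the floor on both arrays. They gave 53.6 on replicate 1 and 42.6 on replicate 2 (1421252_a_at), and 9.3 on replicate 1 and 9.1 on replicate 2 (1425426_a_at).

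Hdac7, at chr15:97792661-97844502, was near the floor. Probe set 1420813_at gave 172 on replicate 1 and 151 on replicate 2, or 161 ± 14.8 (SD, n = 2), which was 1.10 and 1.55 times the floor of the arrays. Probe set 1420812_at, annotated with the same source sequence, gave 247 on replicate 1 and 12.6 on replicate 2. The brighter signal on replicate 1 and the loss of signal on replicate 2 were thus seen by 1 of its 2 probe sets.

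**Figure D3:**
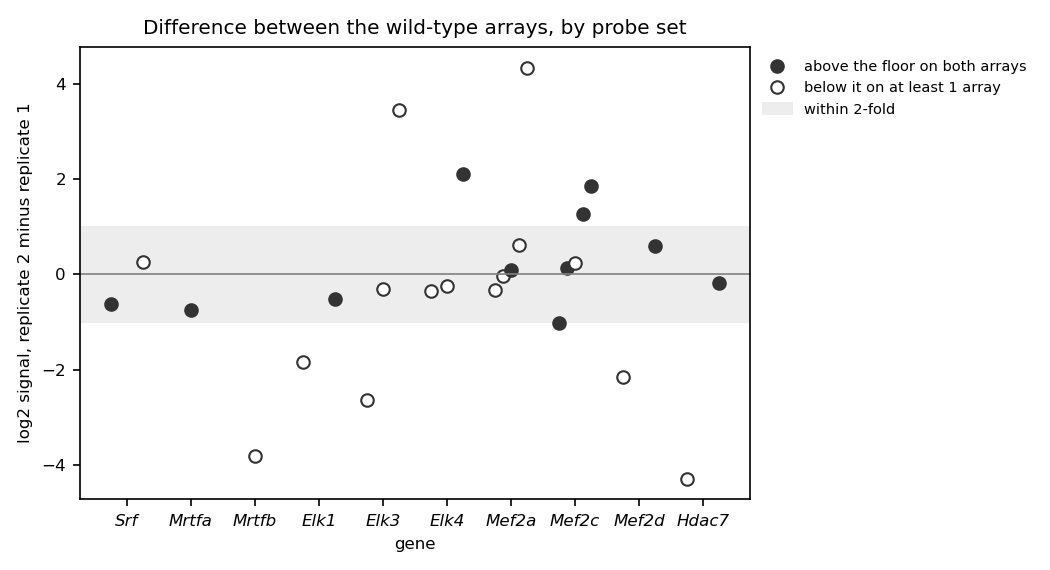
Log2 signal of replicate 2 minus replicate 1 for each probe set, grouped by gene on the x axis, with filled points for detected probe sets, open points for those under the floor of at least 1 array, and a grey band for differences within 2-fold. The filled points outside the band are 1 probe set of Elk4 and 3 of Mef2c, 1 of which is higher on replicate 1, and the differences beyond 3 log2 units are all open points.

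Of the 11 detected probe sets, 7 lay within 2-fold and 4 did not, where 25.4% of all detected probe sets were over 2-fold apart. The 4 were that of Elk4 and 3 of Mef2c. Over 2-fold higher on replicate 2 were 3 of them, against 14.3% of all, and 1 was over 2-fold higher on replicate 1, against 11.1%. Quantile normalization left 2, the probe set of Elk4 with a difference of 1.56 and 1424852_at of Mef2c with 1.29, where 20.03% of all detected probe sets were over 2-fold apart. The median difference of the 11 was 0.10, beside 0.01 over all 5178 detected probe sets.

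The median signal of all gene probe sets was 103 on replicate 1 and 66.6 on replicate 2, a shift of -0.63 on the log2 scale, although both arrays had been scaled to the same trimmed mean. Centring on the medians adds that shift back and so, by construction, turns every difference between -0.63 and 0, which held for 8 of the 26. Quantile normalization turned 7, among them 1420813_at of Hdac7, 1435143_at of Elk3 and 1451506_at of Mef2c. The signal of Srf by 1418255_s_at and of Elk1 by 1421896_at was lower on replicate 2 as deposited and with quantile normalization, at -0.73 and -0.16, but not with centring, at 0.01 and 0.11. With centring, 1427185_at of Mef2a, the most uniform as deposited, gave 0.73.

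Probe sets of 1 gene often differed in direction, here as across the array. Among the 8 members with several probe sets, 6 had differences of both signs, or 75%, against 57.8% of all 4956 such genes. No floor was applied in this count or the next, so both include ratios below the floors, which are not interpretable as expression. Of 6 source sequences shared by several member probe sets, 4 had differences spanning over 1 log2 unit, or 66.7%, against 69.5% of 3034 such sequences on the whole array. Among the 927 genes with at least 2 detected probe sets, of which Mef2c was the only member, 51.5% spanned over 1 log2 unit. With at least 4 such probe sets, as Mef2c had, 40.3% of 77 genes spanned over 2 log2 units, as Mef2c did. The ratio of 3′ to 5′ control signal, a sign of RNA or labelling quality, was 3.57 on replicate 1 and 8.15 on replicate 2 for Actb. For Gapdh it was 1.31 on replicate 1 and at least 8.49 on replicate 2, where the 5′ signal was below the floor and was set to it. The part of this in the disagreement between probe sets was not tested.

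**Figure D4:**
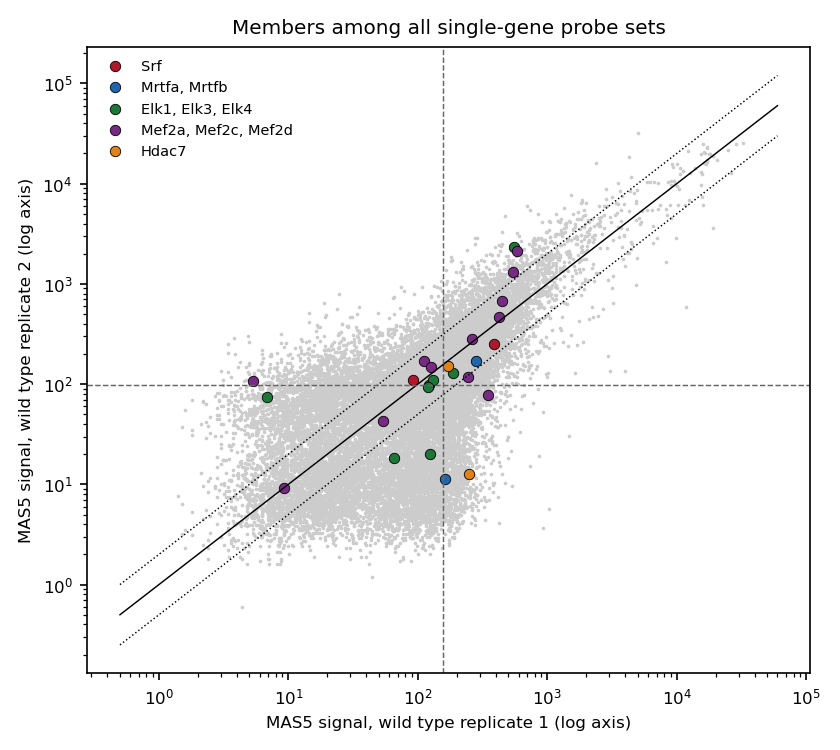
Signal of every single-gene probe set on wild type replicate 1 (x axis) against wild type replicate 2 (y axis), both log axes, with the 26 member probe sets coloured by gene group. The solid line marks equal signal, dotted lines 2-fold differences and dashed lines the floors of 155.6 and 97.1. Below the floors the cloud is broad, and the members with differences over 3 log2 units each lie below the floor of at least 1 array.

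Other factors and regulators of the same pathways were taken as 7 lists. Of 42 measured genes in them, 22 were detected, beside 31.4% of all genes. By the brightest detected probe set, the signal of replicate 2 was over 2-fold higher for 6 genes and that of replicate 1 for 4, while 12 genes lay within 2-fold. The median difference of the 22 genes was 0.35. The other MADS-box gene, Mef2b, passed the floor of replicate 1 only, with 214 on replicate 1 and 72.1 on replicate 2. Of the class IIa deacetylases besides Hdac7, Hdac5 gave 217 on replicate 1 and 58.7 on replicate 2, and Hdac9 gave 11.7 on replicate 1 and 86.2 on replicate 2, so that Hdac7 alone of these 3 was detected. Hdac4 was not analysed here.

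Repressor partners of MEF2 and SRF were detected in 3 of 4 measured genes. These were Ctbp1, a corepressor, at 602 ± 68.0, Sin3b, a scaffold of deacetylase complexes, at 504 ± 267, and Hdac3, the catalytic partner of class IIa deacetylases, at 278 ± 172 (SD, n = 2). Acetyltransferase coactivators passed in 2 of 5, Ncoa3 at 242 ± 122 and Kat2a at 187 ± 26.8 (SD, n = 2). The 14-3-3 genes passed in 6 of 7. Ywhab gave 1286 on replicate 1 and 3461 on replicate 2 by the brightest of its 6 probe sets. Of its 5 other probe sets, 4 likewise had the higher signal on replicate 2.

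Among kinase inputs, MAP kinase genes passed in 4 of 10. Map2k1, the kinase of ERK, gave 613 on replicate 1 and 901 on replicate 2, or 757 ± 204 (SD, n = 2). Mapk14, which encodes the p38 kinase that phosphorylates MEF2C, gave 183 on replicate 1 and 750.1 on replicate 2 by the probe set that passed, 4.09-fold higher on replicate 2. Its 3 other probe sets were below the floor on both arrays. Mapk7, the ERK5 kinase that also acts on MEF2, was below it with 8.9 on replicate 1 and 25.6 on replicate 2. Calcium and protein kinase D genes passed in 7 of 12, with Prkd2 at 486 ± 139, Ppp3ca, a calcineurin catalytic subunit, at 353 ± 128, and Prkd3 at 343 ± 255 (SD, n = 2). Protein kinase D is the kinase family that drives class IIa deacetylases out of the nucleus after antigen receptor signalling.

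Targets of the factors are given for comparison, and their differences were known from earlier work on these arrays. Of 11 measured immediate early SRF targets 7 were detected, with a median difference of -3.08. Over 2-fold higher on replicate 1 were 6 of them and on replicate 2 was 1, Mcl1. The median was -1.86 for 7 of 9 MEF2 targets, a list that shares Nr4a1 with the immediate early list and Mef2d with the members. Of these, 5 were higher on replicate 1 by over 2-fold, and the 2 within 2-fold were Bcl2 and Mef2d. Fos, the classic target of SRF with ternary complex factors, gave 11856 on replicate 1 and 593 on replicate 2. Nr4a1, which MEF2 and class IIa deacetylases control in T cells, gave 3963 on replicate 1 and 135 on replicate 2. The cytoskeletal targets, 14 of 21 detected, had a median difference of 0.21. Across the same samples Srf was 1.54-fold, Mrtfa 1.67-fold and Elk1 1.44-fold higher on replicate 1, by the detected probe set of each. All of these differences were smaller than the spread of differences, 0.90. The undetected probe sets of Srf and Elk1 gave differences of 0.26 and -1.83. The brightest probe sets of Elk4 and Mef2c were higher on replicate 2. The other probe sets of Elk4 gave differences of -0.24 and -0.35, and those of Mef2c ran from -1.03 to 1.26. Whether the members' signals bear on those of the targets was not tested.

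**Figure D5:**
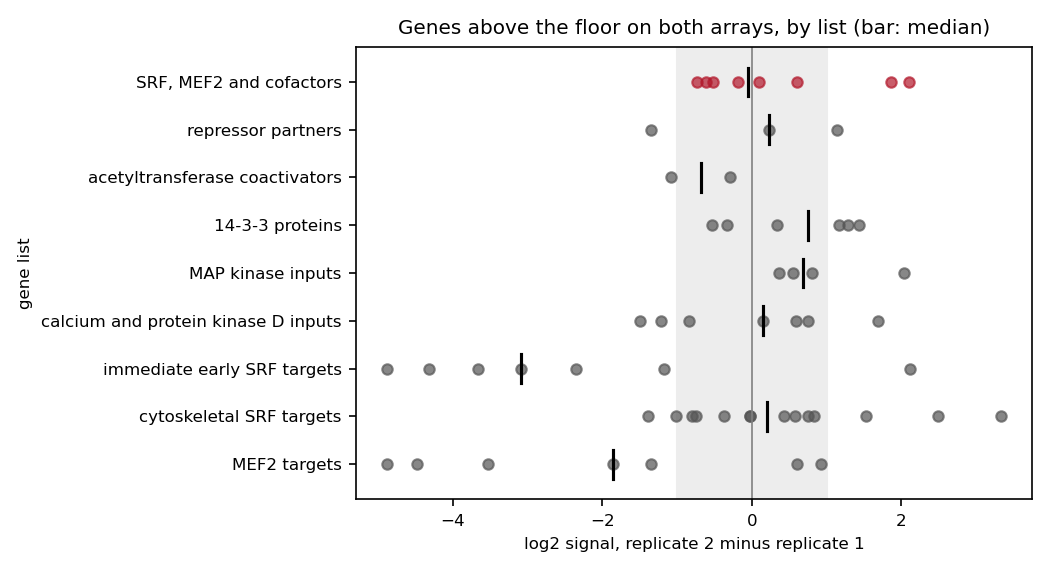
Log2 signal of replicate 2 minus replicate 1 for detected genes, 1 point per gene by its brightest detected probe set, for the members (top row) and 8 lists of partners, inputs and targets, with bars at the medians and a grey band for differences within 2-fold. Of the members 6 of 8 genes lie inside the band, while most immediate early SRF targets lie left of it, with a median of -3.08. Mef2d is plotted both among the members and among the MEF2 targets, and Nr4a1 in both lists of targets that hold it. Counted by probe set, 7 of the 11 detected for the members lay within 2-fold, against 74.6% of all detected probe sets.

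The sorted cells carried B cell markers, with 12 of 13 measured genes detected. Ms4a1, which encodes CD20, gave 4870 ± 2088, and the IgM heavy chain gene Ighm 12796 ± 4012 (SD, n = 2). Pax5, a defining factor of the lineage, was below it, with 21.5 on replicate 1 and 15.6 on replicate 2. Members such as Mef2c, Mef2a and Hdac7 are also expressed in myeloid, muscle, endothelial or T cells. Over 8 lists for other cell types, 7 of 67 genes were detected, or 10.4%, against 4 of 58 organ-restricted genes, or 6.90%. Monocyte and macrophage markers passed in 2 of 12 (Csf1r and Lyz2), and their summed signal was 1944 on replicate 1 and 1397 on replicate 2. Neutrophil markers passed in 3 of 8 (Ngp, S100a8 and S100a9), the highest share of these lists, with a sum of 1203 on replicate 1 and 965 on replicate 2. S100a8 gave 164 on replicate 1 and 449.9 on replicate 2. T cell markers passed in 1 of 11 (Zap70), with a sum of 1338 on replicate 1 and 673 on replicate 2, and Cd3e gave 31.1 on replicate 1 and 16.1 on replicate 2. Muscle markers passed in 0 of 8 and endothelial and stromal markers in 0 of 8. Their summed signals were 943 on replicate 1 and 288 on replicate 2, and 1155 on replicate 1 and 286 on replicate 2. The part of other cells in the members' signals was not tested.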

How the data were processed

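Per the labels' protocols, biotinylated cRNA was made from 6 µg of total RNA. The deposited values are signal intensities. Per the submitters' processing notes the authors used MAS5, with no version or parameters given. Both columns have a mean of 150 after trimming 2% at each end. The table holds 22690 probe sets, including 64 controls. Genes were named from the platform annotation: 20380 probe sets name 1 gene, 691 several and 1555 none here. No counts lie behind the values, so the number of arrays limits the precision.

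Log2 differences, floors and counts were computed with Python 3.11.15, numpy 2.4.6 and pandas 2.3.3. The log2 differences, the 2-fold call and quantile normalization were run on simulated data, and the floors were not. The simulated arrays had less spread than the pooled SD of 0.64. That run therefore does not show how the 2-fold call behaves at the spread of these arrays. With 1 group no p-value was computed. The members, gene lists and tests were chosen with earlier results of these data known. Named genes are all members with every probe set. For each other list at most the 3 brightest detected genes are named. Further genes (Mef2b, Myocd, Hdac5, Hdac9, Mapk7, Pax5, Cd3e, Xist, Eif2s3y, Kdm5d, Uty and Bcl2) were chosen after their values were seen. No gene is named for a similar pattern, since 2 arrays give 1 difference per probe set. Promoter windows came from the RefSeq annotation of GRCm38.p6, in which all 10 genes matched. Protein sequences were not used here. Alternatives were other floors, other scalings, log2(signal + 32), leaving out _x_at and _s_at probe sets, means over probe sets, and each array alone. A floor without Mbp, which had several bright probe sets, was added after seeing the data.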

Additional observations from a re-analysis of the deposited data

How the results depend on the processing

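The count of member probe sets above the floor was 11 as reported, 17 with a floor at the array median, and 26 with none. Over all 20380 single-gene probe sets these counts were 5178, 7346 and 20380. Using each array alone it was 14 on replicate 1 and 17 on replicate 2, against 34.5% and 39.3% of all. The 95th-percentile floor left 8 probe sets of 6 genes, where 3309 of all passed. Leaving out _x_at and _s_at probe sets left 10 of 7 genes, without Srf, where 4241 of all passed. Leaving Mbp out of the floor list, an alternative added after seeing the data, changed neither count. The count over 2-fold apart, 4 as reported, was 2 with quantile normalization and 11 with no floor, where 20.03% and 53.7% of all probe sets were over 2-fold apart. Median centring also gave 4, all higher on replicate 2, against 3 and 1 as deposited, and over all probe sets it gave 1820 higher on replicate 2 and 117 on replicate 1, against 740 and 574. The median difference of the members ran from -0.21 with no floor to 0.73 with median centring, where that of all probe sets was 0.64. By gene, the mean over all probe sets lowered Elk4 from 2.10 to 0.51 and Mef2c from 1.87 to 0.49, and gave -0.78 for Mef2d and 0.17 for Elk3, against 0.60 and -0.31 by their brightest. It moved Hdac7 from -0.19 to -2.24, Elk1 from -0.52 to -1.18 and Mef2a from 0.10 to 0.94. Elk4, Mef2d, Hdac7, Elk1 and Mef2a have 1 detected probe set each. The mean over detected probe sets alone therefore left them at 2.10, 0.60, -0.19, -0.52 and 0.10, and it gave 0.56 for Mef2c. For those genes with 1 detected probe set, the shifts thus came from adding probe sets below a floor. With quantile normalization, no difference past 2-fold by a member probe set above the floor on both arrays changed sign. Centring and the pseudocount could not turn such a difference, by construction, so they do not test its sign. Sizes did change. The difference of 1421028_a_at of Mef2c went from -1.03 to -0.75 with quantile normalization, -0.40 with centring and -0.87 with the pseudocount. That of 1421027_a_at of Mef2c went from 1.26 to 0.73 with quantile normalization, but stayed past 2-fold with centring, at 1.90. The cause of the differences between probe sets of 1 gene was not tested. No paired analysis was possible because both samples belong to 1 group.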
